A study of Mus musculus with 12 samples.

Results

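The genes described here are 57 genes of mitosis, the spindle and the kinetochore, out of 23997 genes listed for every library. They were taken by symbol from a fixed list, and all 57 were found. The list was chosen by measured values of the same libraries, namely by FPKM levels that were higher in Pim1-/- than in WT macrophages both without treatment and after LPS, with Mki67 named as the exception after LPS. Differences between the genotypes are therefore given as a description, without a test. The change after LPS within each genotype was not itself a criterion and was tested, but it is measured in the same libraries, so these tests are not independent of the choice. For Mki67, whose level after LPS entered the choice, the changes are given as a description, also where it is counted among the calls. The same holds for 20 genes that were high enough to be tested only through the Pim1-/- libraries.

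RNA-seq was performed on bone marrow-derived macrophages (BMDMs), cells grown from mouse bone marrow with macrophage colony-stimulating factor (M-CSF). The marrow came from male C57BL/6 mice aged 8 to 10 weeks, was cultured for 1 day and then, as non-adherent cells, for 7 days with 10 ng/ml recombinant human M-CSF. The 12 libraries formed 4 groups of 3, namely untreated WT, untreated Pim1-/-, and WT and Pim1-/- cells given the TLR4 agonist LPS at 100 ng/ml for 4 h. The Pim1-/- mice were made by CRISPR-Cas9 and lack exons I to V of Pim1, a serine/threonine kinase gene. Whether the replicates of a group were separate mice or separate cultures is not given in the sources used here, so p-values measure only the spread between these libraries, and the culture and the genotype cannot be told apart.

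Mitosis begins when the kinase Cdk1, bound to a B-type cyclin, is switched on by Cdc25 phosphatases. Kinetochores built on the centromeres then capture spindle microtubules, and the spindle checkpoint holds back the anaphase-promoting complex until every chromosome is attached. Its release lets separase cut the rings that hold sister chromatids together, after which the central spindle and the cleavage furrow divide the cell. Most of these genes are transcribed late in the cell cycle, so their RNA is abundant in dividing cells and scarce in resting cells. Macrophages cultured with M-CSF can divide, and LPS is known to stop their proliferation. In RNA from a whole culture, fewer dividing cells and less RNA per dividing cell cannot be told apart.

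Promoters of late cell cycle genes are known for a CHR element (cell cycle genes homology region), bound by the MuvB complexes, and for CCAAT boxes, bound by NF-Y. RefSeq promoter windows (build GRCm38.p6) of 250 bases before to 50 bases after the gene start were at hand for 48 of the 57 genes. Those of 8 are shown because the results turn on them. Mki67, Pttg1 and Kif4 stood apart from the rest after LPS, Ccnb1, Cdc20, Plk1 and Top2a followed the common pattern, and Nusap1 lay between. The windows of Pttg1 and Kif4 were added after their values had been seen. Capitals mark 3 kinds of motif on either strand, the CHR motif, the CCAAT box and the E2F core motif. The CHR motif was searched as TTTGAA. A spelling that differs in 1 base, TTCGAA, was counted with it. The E2F core motif was searched as GCGGGAA and likewise under its other spelling, which reads GCGCGAA, and no window printed here held it. The windows are chr7:135716330-135716629 (minus strand), chr11:43425932-43426231 (minus strand) and chrX:100625815-100626114 (plus strand) for the first 3 genes, chr13:100786437-100786736 (minus strand), chr4:118437294-118437593 (minus strand), chr7:122159185-122159484 (plus strand) and chr11:99024140-99024439 (minus strand) for the next 4, and chr2:119618048-119618347 (plus strand) for the last.
Mki67: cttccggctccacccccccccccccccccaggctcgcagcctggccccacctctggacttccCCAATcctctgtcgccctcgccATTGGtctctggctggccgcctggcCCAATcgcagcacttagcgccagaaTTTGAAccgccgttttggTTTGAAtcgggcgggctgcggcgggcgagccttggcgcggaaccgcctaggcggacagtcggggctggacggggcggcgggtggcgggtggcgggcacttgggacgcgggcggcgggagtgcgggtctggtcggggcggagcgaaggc
Pttg1: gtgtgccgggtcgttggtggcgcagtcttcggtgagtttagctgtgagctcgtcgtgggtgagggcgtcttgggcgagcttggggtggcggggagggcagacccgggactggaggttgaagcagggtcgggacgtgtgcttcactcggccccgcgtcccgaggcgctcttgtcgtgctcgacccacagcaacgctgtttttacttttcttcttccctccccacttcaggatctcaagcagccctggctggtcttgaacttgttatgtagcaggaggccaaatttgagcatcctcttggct
Kif4: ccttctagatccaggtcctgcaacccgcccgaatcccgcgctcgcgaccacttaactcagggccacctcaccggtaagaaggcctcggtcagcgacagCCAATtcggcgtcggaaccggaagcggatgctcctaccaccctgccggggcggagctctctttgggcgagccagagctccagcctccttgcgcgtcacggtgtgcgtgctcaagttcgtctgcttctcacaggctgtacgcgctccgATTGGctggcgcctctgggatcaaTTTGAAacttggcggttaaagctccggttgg
Ccnb1: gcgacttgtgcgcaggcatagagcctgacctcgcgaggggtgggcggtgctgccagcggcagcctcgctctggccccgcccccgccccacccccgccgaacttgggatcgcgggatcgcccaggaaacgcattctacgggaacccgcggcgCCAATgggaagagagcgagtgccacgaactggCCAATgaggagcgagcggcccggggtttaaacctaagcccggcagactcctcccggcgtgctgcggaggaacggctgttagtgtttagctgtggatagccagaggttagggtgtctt
Cdc20: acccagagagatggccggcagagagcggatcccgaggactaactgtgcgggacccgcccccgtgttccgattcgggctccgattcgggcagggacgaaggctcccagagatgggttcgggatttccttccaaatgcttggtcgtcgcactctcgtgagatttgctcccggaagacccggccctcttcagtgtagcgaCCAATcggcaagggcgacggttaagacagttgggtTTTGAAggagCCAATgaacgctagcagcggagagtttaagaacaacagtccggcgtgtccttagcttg
Plk1: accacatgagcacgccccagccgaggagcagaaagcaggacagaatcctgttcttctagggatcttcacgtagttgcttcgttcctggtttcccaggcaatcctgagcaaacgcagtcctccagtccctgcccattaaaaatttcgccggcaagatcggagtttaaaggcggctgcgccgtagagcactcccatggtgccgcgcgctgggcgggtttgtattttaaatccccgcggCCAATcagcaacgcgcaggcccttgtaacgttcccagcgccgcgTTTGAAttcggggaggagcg
Top2a: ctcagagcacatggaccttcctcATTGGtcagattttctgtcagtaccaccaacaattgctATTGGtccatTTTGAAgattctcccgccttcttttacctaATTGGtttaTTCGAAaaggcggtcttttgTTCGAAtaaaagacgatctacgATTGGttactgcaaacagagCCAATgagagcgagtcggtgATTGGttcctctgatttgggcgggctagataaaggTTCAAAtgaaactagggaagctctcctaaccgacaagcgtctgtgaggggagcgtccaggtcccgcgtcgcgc
Nusap1: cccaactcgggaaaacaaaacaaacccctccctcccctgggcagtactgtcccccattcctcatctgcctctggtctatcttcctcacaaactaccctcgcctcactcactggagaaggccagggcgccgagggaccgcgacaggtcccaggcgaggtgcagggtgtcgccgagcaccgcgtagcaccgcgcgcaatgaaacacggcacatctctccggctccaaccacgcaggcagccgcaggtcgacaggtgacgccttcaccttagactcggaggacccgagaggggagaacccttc

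The CHR motif was found in 37 of the 48 windows (77.1%), against 16.6% of the 8121 tested genes with a window and 21.7% of all 27025 windows by gene. CCAAT boxes were also in 37 windows (77.1%), against 43.0% of the tested genes, and both motifs together were in 33 (68.8%), against 8.15%. With TTTGAA alone the CHR count was 35. In 33 windows a CHR motif began between 50 bases before and 50 bases after the gene start (68.8%), against 4.41% of the tested genes. The E2F core motif was in 6 windows (12.5%), against 13.2%, and the NF-kappaB consensus was also in 6 (12.5%), against 8.53%. Of the windows printed, that of Cdc20 held a CHR motif at −18 and that of Plk1 at 30 from the gene start, Kif4 held one at 19, Mki67 held 2 at −116 and −98, and Top2a held 4. The window of Ccnb1 held CCAAT boxes but no CHR motif, and none of the motifs was in those of Pttg1 and Nusap1. A match of letters is not a binding site, and their absence speaks only of these 300 bases. The window of Pttg1 was set by a RefSeq gene start. It lies wholly inside the GENCODE span of the gene (chr11:43420250-43426251), so bases before the GENCODE start were not searched.

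**Figure D1:**
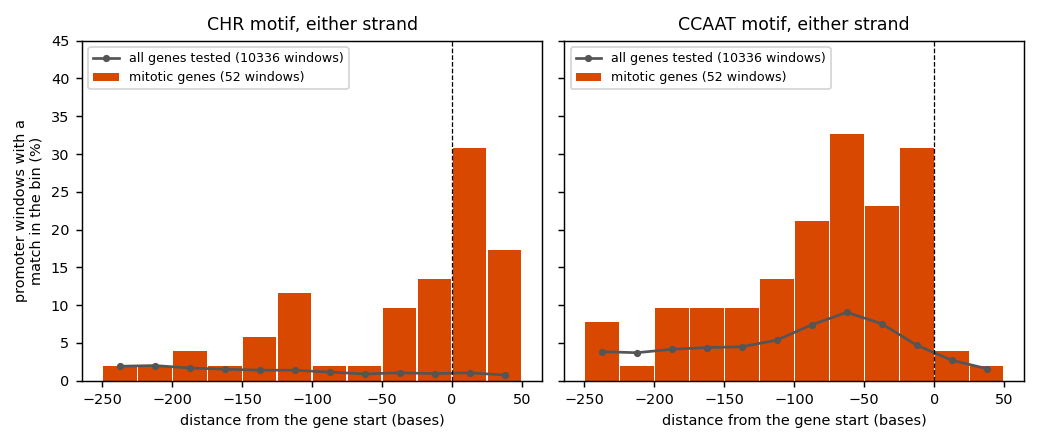
Share of promoter windows (vertical axis, %) with a CHR motif (left) or a CCAAT box (right) in each bin of 25 bases, by distance from the gene start (horizontal axis, bases). Bars are the windows of the mitotic genes and lines those of all tested genes, with alternative windows of a gene counted separately. CHR motifs of the mitotic genes gathered at the gene start and CCAAT boxes upstream of it.

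Pim1 was measured at 21.5 to 25.0 FPKM in untreated WT and 8.00 to 9.51 FPKM in untreated Pim1-/- cells, and at 630.2 to 665 FPKM and 205 to 236 FPKM after LPS. FPKM counts fragments scaled to the length of the transcript and, by definition, the size of the library. How the deposited values were scaled between libraries is not given. By an estimate described below, 1 fragment per kb was worth 0.0217 to 0.0264 FPKM in untreated and 0.0311 to 0.0476 FPKM in LPS-treated libraries. Their estimated depths overlapped, so by that estimate the scaling was not by library size alone. Every Pim1-/- library lay below every WT library of its treatment, and the remaining signal could not be assigned to exons. The macrophage markers were present in all 12 libraries, and 10 of 10 reached 1 FPKM. Their summed level was 27978 to 30030.0 FPKM in untreated WT, 14435 to 15352 FPKM in untreated Pim1-/-, 30859 to 31358 FPKM in LPS-treated WT and 15949 to 17814 FPKM in LPS-treated Pim1-/- cells. In Pim1-/- cells 9 of the 10 markers lay below WT in every untreated library and 10 of 10 after LPS. Csf1r, the M-CSF receptor, was at 764 FPKM in untreated WT and 254 FPKM in untreated Pim1-/- cells. Of 12 progenitor markers 9 stayed under 1 FPKM everywhere, and the summed level was 2.95 to 3.08 FPKM in untreated WT, 14.3 to 15.1 FPKM in untreated Pim1-/-, 24.2 to 26.8 FPKM in LPS-treated WT and 11.1 to 11.8 FPKM in LPS-treated Pim1-/- cells. Among them Cd34 moved with the mitotic genes between genotypes, at 0.844 FPKM in untreated WT and 11.5 FPKM in untreated Pim1-/- cells. The sum of LPS-treated WT cells was mostly Gfi1, at 23.6 FPKM against 0.0129 FPKM in untreated WT. Kit fell there from 1.74 to 0.668 FPKM and Cd34 to 0.564 FPKM. Untreated, 5 of the 12 markers lay above WT in every Pim1-/- library and 0 below. After LPS 1 lay above and 3 below. Of 5 B cell markers 4 stayed under 1 FPKM in every library, with Pax5 listed at 0, and so did 7 of 8 T and NK cell markers, with Cd3e and Cd3g listed at 0. The exceptions, Cd79b and Cd4, had their highest means in untreated WT cells, at 1.47 and 4.96 FPKM against 0.973 and 0.432 FPKM in untreated Pim1-/- cells. Of 10 erythroid and megakaryocyte markers 9 stayed under 1 FPKM and 4 globin genes were listed at 0. The exception was Pf4, a platelet chemokine, at 16.1 FPKM in untreated WT, 39.1 FPKM in untreated Pim1-/-, 35.4 FPKM in LPS-treated WT and 60.8 FPKM in LPS-treated Pim1-/- cells. Its mean was higher in Pim1-/- cells, but unlike most of the mitotic genes it was also higher after LPS in both genotypes. Of the 10 markers, 1 lay above and 2 lay below WT in every untreated Pim1-/- library. The summed level of 7 neutrophil markers was 3.05 to 3.50 FPKM in untreated WT, 6.05 to 7.02 FPKM in untreated Pim1-/-, 74.5 to 77.6 FPKM in LPS-treated WT and 19.8 to 23.3 FPKM in LPS-treated Pim1-/- cells. Lcn2 made up most of the sums after LPS, going from 0.0980 to 67.3 FPKM in WT and from 0.0114 to 14.7 FPKM in Pim1-/- cells. Of 6 monocyte markers, 2 lay above and 3 below WT in every untreated Pim1-/- library. For 8 dendritic cell markers these counts were 1 and 4, and for 8 stromal and endothelial markers 0 and 5. After LPS the counts above and below were 0 and 4, 1 and 4, and 0 and 7 in that order. All 6 mast cell and basophil markers stayed under 1 FPKM. The part of other cells in the levels of the mitotic genes was not tested.

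Every one of the 57 genes was higher in all 3 untreated Pim1-/- libraries than in all 3 untreated WT libraries, and this was the pattern the list was chosen for. Over all 10581 tested genes, 34.2% had that order. The summed level of the 57 genes was 185 to 202 FPKM in untreated WT and 1439 to 1467 FPKM in untreated Pim1-/- libraries. After LPS it was 363 to 374 FPKM in WT and 783 to 843 FPKM in Pim1-/- libraries. Pttg1 alone made up much of the sum after LPS. Without it the sums were 162 to 177 FPKM in untreated WT, 123 to 127 FPKM in LPS-treated WT, 1413 to 1439 FPKM in untreated Pim1-/- and 599 to 651 FPKM in LPS-treated Pim1-/- libraries, so that the summed level was lower after LPS in both genotypes and did not overlap between any groups.

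**Figure D2:**
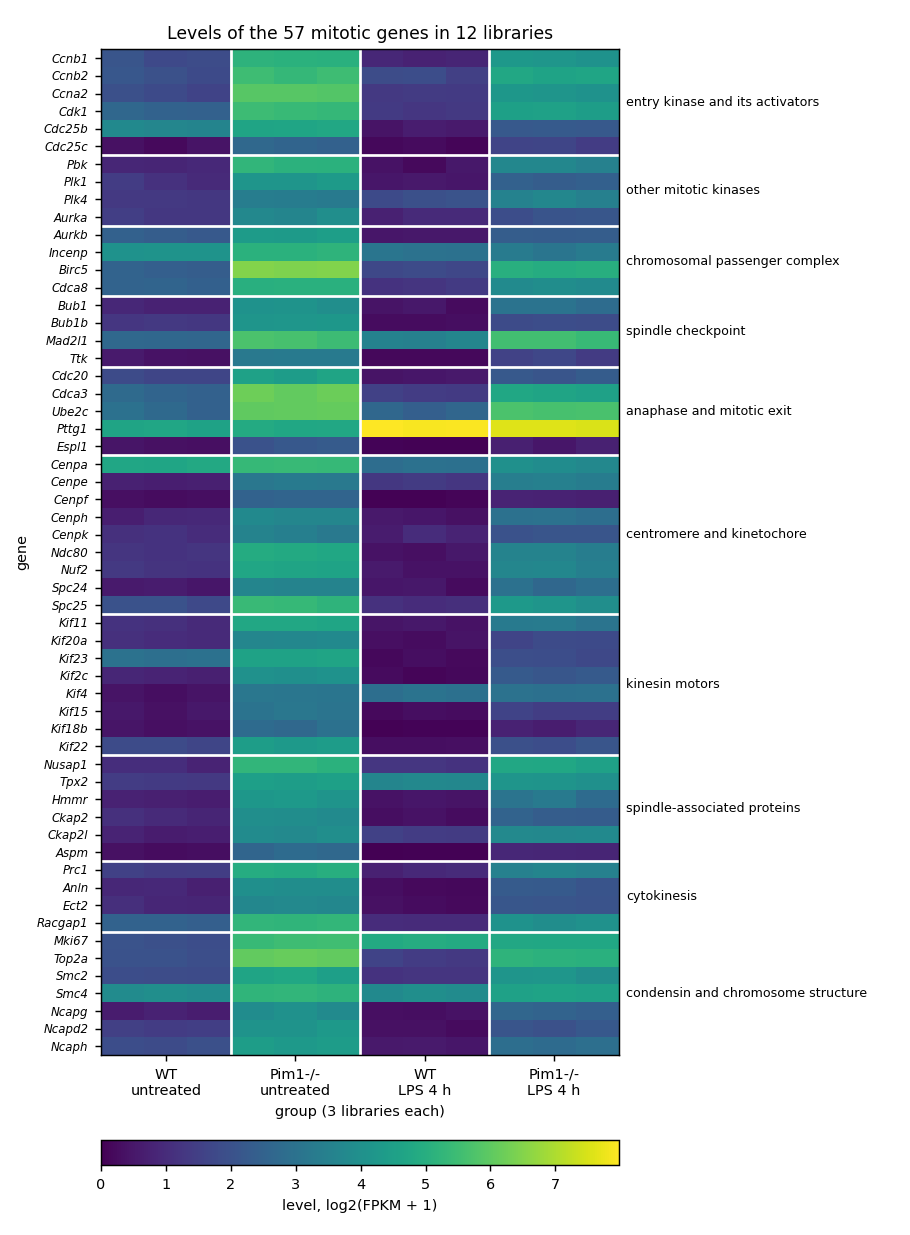
Level of each of the 57 genes (rows, by role) in the 12 libraries (columns, 3 per group), as log2(FPKM + 1) from dark (0) to bright. The untreated Pim1-/- libraries are the brightest block in nearly every row, the LPS-treated WT libraries are the darkest in most, and Pttg1 is brightest after LPS in both genotypes.

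The median ratio of the Pim1-/- mean to the WT mean was 13.9 without treatment and 13.4 after LPS. On the log2(FPKM + 1) scale, which understates differences of low genes, the median difference was 2.84 without treatment and 1.98 after LPS, and the difference passed 2-fold for 55 genes without treatment (4.4% of all tested genes) and for 46 after LPS (3.54%). The ratio without treatment ranged from 1.11 for Pttg1 to 41.8 for Pbk, and both ends lie inside the list, whose members were named and not cut at a threshold. After LPS 54 of the 57 genes were still higher in every Pim1-/- library (35.6% of all tested genes). The order was opposite for Mki67 and Pttg1 (41.8% of all tested genes lay below WT), and the values of Kif4 overlapped. Mki67 was thus not the only exception after LPS as deposited. The reversed order of Mki67 depended on the scaling, since its difference between Pim1-/- and WT after LPS was −0.12 on the log2 scale as deposited, 0.06 with quantile normalization and 0.14 with scaling to the estimated fragments. That of Pttg1 was −0.37, −0.11 and −0.10.

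All 57 genes passed the filter of at least 1 FPKM in at least 3 libraries, but only 37 reached it in WT libraries alone, and the other 20 passed through the Pim1-/- libraries in which they were high. These were Pbk, Cdc25c, Bub1, Ttk, Plk1, Cenpf, Cenph, Spc24, Kif11, Kif20a, Kif2c, Kif15, Kif18b, Anln, Ect2, Espl1, Ncapg, Hmmr, Ckap2 and Aspm. Their calls and adjusted p-values are given as a description, because the levels that chose the list also let them be tested. A mean of 1 FPKM was missed by 21 of the genes in untreated WT, by 35 in LPS-treated WT and by 4 in LPS-treated Pim1-/- cells. Depth was not given, and it was estimated from the steps between low values as 36000000 to 46400000 fragments per library. By that estimate 11 genes had under 10 fragments in at least 1 library, with the fewest (2.0) for Kif18b in an LPS-treated WT library. FPKM values of LPS-treated libraries add up to more than those of untreated ones, and scaling to the estimated fragments moved the median of all tested genes after LPS by −0.70 in WT and −0.59 in Pim1-/- cells on the log2 scale. Under that scaling Nusap1 turned from higher to lower after LPS in WT, and Plk4 and Cenpe did so in Pim1-/- cells. Exons of 15 of the genes overlap those of a gene on the other strand, and the counting is not stated to use strand. Their values are uncertain to that extent, and of the genes described with all their values they include Nusap1 (with Oip5), Cdc20 (with Elovl1), Cdc25b (with Spef1), Kif20a (with Cdc23), Kif4 (with Pdzd11) and Prc1 (with Rccd1).

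In WT cells, limma with Benjamini-Hochberg adjustment over all tested genes called 15 of the 57 genes lower after LPS (more than 2-fold, p under 0.05 and FDR under 0.1), where 14.7% of all tested genes were called lower. It called 4 higher, namely Mki67, Pttg1, Kif4 and Tpx2, where the share of all tested genes was 20.1%. The call of Mki67 is a description, because its level after LPS entered the choice. Of these 4, Mki67, Kif4 and Tpx2 were not called in Pim1-/- cells, a pattern of 6.48% of all tested genes. The other 38 were not called, although 36 of them had an FDR under 0.1. Of these 38, 17 were below a mean of 1 FPKM in both WT groups. There the added 1 FPKM makes a 2-fold change impossible. No gene with an untreated mean under 1 FPKM can be called lower on this scale, and 21 of the 57 were under it in untreated WT. The values of all 3 LPS libraries lay below all 3 untreated libraries for 43 genes (44.9% of all tested genes) and above them for 9 (45.5%), and 5 overlapped. The number called lower depended on the settings, with 32 at a pseudocount of 0.1 in place of 1, 23 with scaling to the estimated fragments and 9 with quantile normalization, which lost the calls of Cdk1, Ccnb1, Bub1b, Cdca8, Cdca3 and Ncapd2.

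In Pim1-/- cells 38 of the 57 genes were called lower after LPS (10.4% of all tested genes) and 1, Pttg1, was called higher (14.6%). Of the 37 genes that passed the filter on WT libraries alone 21 were among those called lower, and of the 20 that passed only through the Pim1-/- libraries 17 were. The other 18 were not called, 16 of them with an FDR under 0.1, and quantile normalization called 7 of these lower, namely Mki67, Top2a, Ccnb1, Ccnb2, Cdk1, Ube2c and Smc4. The LPS values lay below the untreated values in every library for 52 genes (42.1% of all tested genes), above them for Pttg1, Plk4 and Cenpe (41.7%), of which the last 2 turned with the scaling to estimated fragments, and overlapped for Mad2l1 and Ckap2l. Mki67, Kif4, Tpx2 and Nusap1 lay above the untreated values in every WT library and below them in every Pim1-/- library after LPS (2.21% of all tested genes). On the log2(FPKM + 1) scale the median change of the 57 genes was −0.52 in WT and −1.39 in Pim1-/- cells, beside 0.00 and −0.01 over all tested genes. As a ratio of mean FPKM the 2 genotypes were closer. The median gene kept 36.2% of its untreated level in WT and 34.7% in Pim1-/- cells, and the ratio was more than 2-fold lower for 36 genes in WT and 39 in Pim1-/- cells. Called lower in both genotypes were 13 genes (7.89% of all tested genes), Pttg1 was the gene called higher in both (13.6%), and a further 25 were called lower in Pim1-/- cells and not called in WT (2.52%). The 25 do not show a different response. The 21 genes under 1 FPKM in untreated WT could not be called lower there, and the choice of the list favoured low WT levels. Whether the 2 responses differ was not tested, because the difference is built from the comparisons that chose the genes.

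Among Cdk1 and its activators, 3 of 6 genes were called lower after LPS in WT (Cdk1, Ccnb1 and Cdc25b) and 2 of 6 in Pim1-/- cells (Ccna2 and Cdc25b). With quantile normalization the counts were 1 in WT and 5 in Pim1-/- cells, and with scaling to the estimated fragments they were 3 and 6. Cdk1, the kinase that drives entry into mitosis, was at 5.34, 4.66 and 4.62 FPKM in untreated WT, 1.56, 1.37 and 1.49 FPKM in LPS-treated WT, 43.5, 40.7 and 38.5 FPKM in untreated Pim1-/- and 22.4, 22.6 and 20.7 FPKM in LPS-treated Pim1-/- cells. Ccnb1, cyclin B1, was at 3.34, 2.39 and 2.61 FPKM in untreated WT, 0.847, 0.716 and 0.764 FPKM in LPS-treated WT, 34.4, 33.2 and 32.2 FPKM in untreated Pim1-/- and 18.2, 17.2 and 15.6 FPKM in LPS-treated Pim1-/- cells. For both genes every LPS-treated library lay below every untreated library of its genotype, and all 6 Pim1-/- libraries lay above all 6 WT libraries. Cdk1 had log2 changes of −1.25 in WT (adjusted p = 1.1e-11) and −0.87 in Pim1-/- cells (adjusted p = 1.6e-09), each with a standard error of 0.06, and by ratio of means it was 3.31 times lower in WT and 1.87 times lower in Pim1-/- cells. Ccnb1 had log2 changes of −1.08 in WT (adjusted p = 2e-09) and −0.93 in Pim1-/- cells (adjusted p = 1.8e-08), each with a standard error of 0.08. Its call in WT was lost without untreated WT replicate 1, where the change was −0.98, and with quantile normalization (−0.76), which also ended that of Cdk1 (−0.96). Cdc25b, a phosphatase that activates Cdk1, showed the largest decrease of the 57 genes in WT on this scale, from 12.7, 11.6 and 11.2 FPKM to 0.338, 0.568 and 0.505 FPKM. In Pim1-/- cells it went from 24.1, 24.7 and 26.5 FPKM to 3.70, 3.77 and 3.65 FPKM, so that the levels of LPS-treated Pim1-/- cells lay below those of untreated WT cells. The tests gave log2 changes of −3.12 in WT (adjusted p = 1.6e-16) and −2.47 in Pim1-/- cells (adjusted p = 4.9e-15), each with a standard error of 0.06. Ccna2, cyclin A2, fell in Pim1-/- cells from 58.3 ± 1.89 FPKM to 16.7 ± 0.972 FPKM (SD, n = 3), with a log2 change of −1.74. Ccnb2 and Cdc25c were called in neither genotype as deposited, and their WT values overlapped between treatments.

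Of the other mitotic kinases, Plk1, Pbk and Aurka were called lower in Pim1-/- cells, and none of the 4 was called in WT by limma, although all 4 had an unadjusted p under 0.05. Plk1, a kinase of centrosome maturation and spindle assembly, was at 1.66, 1.20 and 0.950 FPKM in untreated WT, 0.405, 0.445 and 0.403 FPKM in LPS-treated WT, 16.7, 16.8 and 19.3 FPKM in untreated Pim1-/- and 4.60, 4.05 and 4.51 FPKM in LPS-treated Pim1-/- cells. Pbk, a kinase of dividing cells, was at 0.820, 0.785 and 0.891 FPKM in untreated WT, 0.324, 0.154 and 0.426 FPKM in LPS-treated WT, 37.3, 33.9 and 33.2 FPKM in untreated Pim1-/- and 12.0, 11.9 and 10.3 FPKM in LPS-treated Pim1-/- cells. Both were lower in every LPS-treated library than in the untreated ones, and Pbk had the widest gap between the genotypes of all 57 genes. Plk1 had log2 changes of −0.67 in WT (adjusted p = 4.5e-06) and −1.79 in Pim1-/- cells (adjusted p = 2.8e-11), each with a standard error of 0.09. Pbk had log2 changes of −0.50 in WT (adjusted p = 1.8e-05) and −1.53 in Pim1-/- cells (adjusted p = 2.5e-11), each with a standard error of 0.08. Plk1 and Pbk passed the filter only through the Pim1-/- libraries, so their test values are a description. Pbk, under 1 FPKM in untreated WT, could not be called lower there. Plk4, the kinase that starts centriole duplication, differed from these 3. It was at 1.51, 1.51 and 1.47 FPKM in untreated WT, 2.45, 2.88 and 3.12 FPKM in LPS-treated WT, 9.50, 9.30 and 8.60 FPKM in untreated Pim1-/- and 10.6, 12.1 and 10.2 FPKM in LPS-treated Pim1-/- cells, so that its LPS values lay above its untreated values in both genotypes. Neither change was called, with log2 changes of 0.61 in WT (adjusted p = 6.8e-07) and 0.23 in Pim1-/- cells (adjusted p = 0.0066), each with a standard error of 0.07, and the direction in Pim1-/- cells turned when libraries were scaled to the estimated fragments.

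The chromosomal passenger complex corrects faulty attachments of chromosomes and guides cytokinesis. Its 4 genes were called lower in Pim1-/- cells, and Aurkb, Incenp and Cdca8 were called lower in WT too. Aurkb, the kinase of the complex, was at 4.56, 4.12 and 3.71 FPKM in untreated WT, 0.412, 0.431 and 0.432 FPKM in LPS-treated WT, 19.9, 19.6 and 21.0 FPKM in untreated Pim1-/- and 4.13, 3.95 and 4.12 FPKM in LPS-treated Pim1-/- cells. Birc5, which encodes survivin, was at 4.81, 4.35 and 4.07 FPKM in untreated WT, 2.29, 2.53 and 2.26 FPKM in LPS-treated WT, 90.1, 86.3 and 87.5 FPKM in untreated Pim1-/- and 31.5, 30.0 and 30.9 FPKM in LPS-treated Pim1-/- cells. Neither gene overlapped between treatments, and untreated Pim1-/- cells had more Birc5 RNA per length than RNA of any other of the 57 genes. Aurkb had log2 changes of −1.84 in WT (adjusted p = 4.4e-14) and −2.06 in Pim1-/- cells (adjusted p = 1.5e-14), each with a standard error of 0.06, and Birc5 had log2 changes of −0.69 in WT (adjusted p = 4.6e-09) and −1.49 in Pim1-/- cells (adjusted p = 2.9e-13), each with a standard error of 0.05. Incenp, the scaffold of the complex, had one of the smallest gaps between genotypes, at 15.9 ± 0.177 FPKM in untreated WT and 34.0 ± 1.52 FPKM in untreated Pim1-/- cells (SD, n = 3). After LPS the means were 7.15 ± 0.345 FPKM (WT) and 8.47 ± 0.768 FPKM (Pim1-/-).

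Of the 4 spindle checkpoint genes, Bub1b was called lower in WT, and Bub1, Bub1b and Ttk in Pim1-/- cells. The WT call of Bub1b was lost with median-ratio scaling, by a narrow margin, and with quantile normalization (−0.86). Bub1, a checkpoint kinase, was at 0.862, 0.693 and 0.692 FPKM in untreated WT, 0.331, 0.421 and 0.185 FPKM in LPS-treated WT, 15.9, 16.3 and 14.3 FPKM in untreated Pim1-/- and 7.30, 7.30 and 6.09 FPKM in LPS-treated Pim1-/- cells. Its values did not overlap between treatments in either genotype, with log2 changes of −0.42 in WT (adjusted p = 0.00015) and −1.06 in Pim1-/- cells (adjusted p = 4e-09), each with a standard error of 0.08. The call in Pim1-/- cells was lost without LPS-treated Pim1-/- replicate 3, where the change was −0.99. Bub1 passed the filter only through the Pim1-/- libraries, so its test values are a description. Bub1 and Ttk, under 1 FPKM in untreated WT, could not be called lower there. Mad2l1, which encodes the checkpoint protein Mad2, was at 5.48, 5.40 and 5.16 FPKM in untreated WT, 10.5, 10.0 and 11.7 FPKM in LPS-treated WT, 51.1, 49.0 and 43.2 FPKM in untreated Pim1-/- and 46.6, 46.1 and 40.2 FPKM in LPS-treated Pim1-/- cells. In WT its LPS values were all higher, by 2.01 times in the mean, while in Pim1-/- cells the values of the treatments overlapped. Neither change was called, with log2 changes of 0.89 in WT (adjusted p = 6e-09) and −0.11 in Pim1-/- cells (adjusted p = 0.17), each with a standard error of 0.07.

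Pttg1, which encodes securin, the inhibitor of separase, moved against most of the other genes. It was at 24.4, 25.6 and 23.1 FPKM in untreated WT, 251, 236 and 246 FPKM in LPS-treated WT, 28.2, 26.2 and 26.5 FPKM in untreated Pim1-/- and 193, 189.8 and 183 FPKM in LPS-treated Pim1-/- cells. LPS-treated libraries lay far above untreated ones in both genotypes, and the WT libraries lay above the Pim1-/- libraries after LPS. Pttg1 rose 10.0 times in WT and 7.00 times in Pim1-/- cells, with log2 changes of 3.27 in WT (adjusted p = 1.1e-18) and 2.76 in Pim1-/- cells (adjusted p = 1.3e-17), each with a standard error of 0.05. Untreated, its mean level differed between genotypes by a factor of 1.11, the smallest of the list. Cdc20, an activator of the anaphase-promoting complex, was at 2.51, 2.17 and 2.16 FPKM in untreated WT, 0.350, 0.393 and 0.449 FPKM in LPS-treated WT, 22.5, 20.2 and 24.5 FPKM in untreated Pim1-/- and 3.66, 3.31 and 3.95 FPKM in LPS-treated Pim1-/- cells. It fell by a factor of 5.74 in WT and 6.15 in Pim1-/- cells without overlap, with log2 changes of −1.23 in WT (adjusted p = 1.5e-10) and −2.33 in Pim1-/- cells (adjusted p = 5.2e-14), each with a standard error of 0.07. Cdca3 was called lower in both genotypes and Espl1, which encodes separase itself, in Pim1-/- cells. Espl1 was under 1 FPKM in untreated WT and could not be called lower there. Ube2c, the ubiquitin-conjugating enzyme of the anaphase-promoting complex, was called in neither as deposited, with ratios of LPS-treated to untreated means of 0.880 in WT and 0.768 in Pim1-/- cells.

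Of 9 centromere and kinetochore genes, 1 was called lower in WT and 6 in Pim1-/- cells. Cenpa, the histone variant that marks centromeres, was at 25.3, 25.0 and 27.0 FPKM in untreated WT, 6.20, 6.95 and 6.73 FPKM in LPS-treated WT, 39.9, 40.3 and 40.0 FPKM in untreated Pim1-/- and 15.0, 13.6 and 12.1 FPKM in LPS-treated Pim1-/- cells. It was among the most abundant of the genes in untreated WT cells, and it was called lower in both genotypes without overlap, with log2 changes of −1.81 in WT (adjusted p = 1.5e-13) and −1.50 in Pim1-/- cells (adjusted p = 2.5e-12), each with a standard error of 0.06. Ndc80, a subunit of the complex that binds microtubule ends, was at 1.37, 1.26 and 1.32 FPKM in untreated WT, 0.298, 0.267 and 0.427 FPKM in LPS-treated WT, 29.0, 27.5 and 25.7 FPKM in untreated Pim1-/- and 10.9, 10.9 and 9.44 FPKM in LPS-treated Pim1-/- cells. Its LPS values were below the untreated values in both genotypes, with log2 changes of −0.80 in WT (adjusted p = 1e-08) and −1.32 in Pim1-/- cells (adjusted p = 2.4e-11), each with a standard error of 0.07. Its partners Nuf2 and Spc25 were called lower in Pim1-/- cells as well, while Spc24, the remaining subunit, was not, with a log2 change of −0.75. Without LPS-treated Pim1-/- replicate 3 the call of Nuf2 was lost as well, at −0.99. Cenpe, a motor of the kinetochore, was at 0.677, 0.590 and 0.615 FPKM in untreated WT, 1.45, 1.61 and 1.39 FPKM in LPS-treated WT, 8.05, 8.77 and 8.40 FPKM in untreated Pim1-/- and 9.68, 10.1 and 9.22 FPKM in LPS-treated Pim1-/- cells. All LPS values lay above the untreated values of the same genotype, by ratios of 2.37 in WT and 1.15 in Pim1-/- cells, and neither change was called, with log2 changes of 0.61 in WT (adjusted p = 3.2e-08) and 0.18 in Pim1-/- cells (adjusted p = 0.0064), each with a standard error of 0.06.

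The kinesin motors held the largest decreases by ratio and also one of the largest increases. Kif23, a motor of the central spindle, was at 7.02, 6.46 and 6.90 FPKM in untreated WT, 0.119, 0.235 and 0.148 FPKM in LPS-treated WT, 23.3, 23.4 and 24.1 FPKM in untreated Pim1-/- and 2.81, 2.72 and 2.31 FPKM in LPS-treated Pim1-/- cells. It was 40.6 times lower after LPS in WT, where an estimated 8.9 fragments remained in the lowest library, and 9.02 times lower in Pim1-/- cells, and no values overlapped. The tests gave log2 changes of −2.74 in WT (adjusted p = 4.1e-16) and −2.77 in Pim1-/- cells (adjusted p = 5.1e-16), each with a standard error of 0.06. Kif22, a motor that binds chromosome arms, was at 2.57, 2.52 and 2.19 FPKM in untreated WT, 0.229, 0.215 and 0.255 FPKM in LPS-treated WT, 20.8, 18.7 and 20.4 FPKM in untreated Pim1-/- and 2.84, 2.71 and 3.28 FPKM in LPS-treated Pim1-/- cells. It was called lower in both genotypes, by −1.47 in WT and −2.41 in Pim1-/- cells on the log2 scale, and its values did not overlap between treatments. Kif11, which pushes the spindle poles apart, was at 1.27, 1.17 and 0.949 FPKM in untreated WT, 0.361, 0.435 and 0.310 FPKM in LPS-treated WT, 26.4, 26.4 and 24.6 FPKM in untreated Pim1-/- and 8.49, 8.89 and 7.48 FPKM in LPS-treated Pim1-/- cells. Kif20a, a motor needed for cytokinesis, was at 1.17, 1.04 and 0.951 FPKM in untreated WT, 0.261, 0.204 and 0.325 FPKM in LPS-treated WT, 11.8, 12.0 and 12.8 FPKM in untreated Pim1-/- and 2.11, 2.52 and 2.45 FPKM in LPS-treated Pim1-/- cells. Both were lower after LPS in every library of either genotype, and both were called in Pim1-/- cells (−1.53 and −1.98) but not in WT (−0.64 and −0.70). Kif11 and Kif20a passed the filter only through the Pim1-/- libraries, so these calls are a description. In all, 7 of the 8 motors were called lower in Pim1-/- cells.

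Kif4, a motor that binds chromosomes and the central spindle, was the remaining one. It was at 0.340, 0.235 and 0.337 FPKM in untreated WT, 6.43, 7.19 and 6.62 FPKM in LPS-treated WT, 7.87, 7.73 and 7.66 FPKM in untreated Pim1-/- and 7.06, 6.73 and 6.94 FPKM in LPS-treated Pim1-/- cells. In WT its level after LPS was 22.2 times the untreated level, the highest ratio of the 57 genes, while in Pim1-/- cells it was slightly lower in every LPS library. The tests gave log2 changes of 2.57 in WT (adjusted p = 1.8e-16) and −0.15 in Pim1-/- cells (adjusted p = 0.019), each with a standard error of 0.05. The gene lies at chrX:100625737-100727214 on the plus strand in the GENCODE annotation, and its exons overlap those of Pdzd11 on the other strand. The promoter window printed above was set by a RefSeq gene start and lies inside this span. Distances given for its motifs hold for the RefSeq start only.

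Of the proteins that bind the spindle, Tpx2, an activator of Aurora A, had a similar order of levels. It was at 1.65, 1.54 and 1.51 FPKM in untreated WT, 11.4, 12.3 and 11.9 FPKM in LPS-treated WT, 21.8, 20.8 and 22.2 FPKM in untreated Pim1-/- and 17.1, 16.5 and 15.1 FPKM in LPS-treated Pim1-/- cells. It rose 7.58 times in WT with no overlap, and in Pim1-/- cells the LPS values lay below the untreated ones without a call, with log2 changes of 2.33 in WT (adjusted p = 5.6e-16) and −0.39 in Pim1-/- cells (adjusted p = 4.7e-06), each with a standard error of 0.05. With scaling to the estimated fragments it was called lower in Pim1-/- cells (−1.03). Nusap1, which bundles spindle microtubules, was at 1.07, 1.08 and 0.732 FPKM in untreated WT, 1.42, 1.41 and 1.26 FPKM in LPS-treated WT, 37.2, 37.1 and 33.5 FPKM in untreated Pim1-/- and 26.6, 26.0 and 22.7 FPKM in LPS-treated Pim1-/- cells. Its LPS values lay above the untreated values in WT and below them in Pim1-/- cells. Neither change was called, with log2 changes of 0.27 in WT (adjusted p = 0.0034) and −0.50 in Pim1-/- cells (adjusted p = 1.7e-05), each with a standard error of 0.08, and its direction in WT turned with the scaling to estimated fragments. Ckap2l was 2.81 times higher after LPS in WT by ratio of means, at levels from 0.618 ± 0.101 FPKM to 1.74 ± 0.153 FPKM (SD, n = 3), which was not called. Hmmr, Ckap2 and Aspm, the last a gene of the spindle poles, were called lower in Pim1-/- cells and not in WT.

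The 4 cytokinesis genes were all called lower in Pim1-/- cells, and Racgap1, a partner of Kif23 in the central spindle, also in WT (−1.49). Prc1, which bundles the microtubules of the central spindle, was at 1.91, 1.67 and 1.70 FPKM in untreated WT, 0.660, 0.902 and 0.967 FPKM in LPS-treated WT, 29.4, 28.7 and 31.0 FPKM in untreated Pim1-/- and 10.4, 11.4 and 10.3 FPKM in LPS-treated Pim1-/- cells. Its values fell into the common order, lowest in LPS-treated WT and highest in untreated Pim1-/- cells with no overlap, and it had log2 changes of −0.59 in WT (adjusted p = 4.8e-07) and −1.39 in Pim1-/- cells (adjusted p = 1.2e-11), each with a standard error of 0.07. Anln and Ect2, which act at the cleavage furrow, had log2 changes of −1.72 and −1.62 in Pim1-/- cells. Both had untreated WT means under 1 FPKM and could not be called lower in WT.

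Among genes of chromosome structure, the condensin subunits Ncapd2 and Ncaph were called lower in both genotypes and Ncapg in Pim1-/- cells. Ncapg was under 1 FPKM in untreated WT and could not be called lower there. Top2a, the topoisomerase that untangles sister chromatids, was at 3.06, 3.00 and 2.81 FPKM in untreated WT, 2.06, 1.70 and 1.52 FPKM in LPS-treated WT, 66.0, 68.6 and 66.1 FPKM in untreated Pim1-/- and 35.7, 34.2 and 32.3 FPKM in LPS-treated Pim1-/- cells. Every LPS value was below every untreated value of its genotype, but neither change passed 2-fold as deposited, with log2 changes of −0.52 in WT (adjusted p = 1.2e-06) and −0.95 in Pim1-/- cells (adjusted p = 8.9e-10), each with a standard error of 0.06. The change in Pim1-/- cells was called with quantile normalization (−1.57) and with scaling to the estimated fragments (−1.61), and that in WT with the latter (−1.10). Smc4, a core subunit of condensin, was at 13.5, 14.3 and 13.5 FPKM in untreated WT, 12.8, 14.4 and 13.3 FPKM in LPS-treated WT, 35.9, 37.1 and 34.3 FPKM in untreated Pim1-/- and 22.5, 23.5 and 22.9 FPKM in LPS-treated Pim1-/- cells. In WT its values overlapped between treatments, and in Pim1-/- cells they were lower after LPS without overlap, with log2 changes of −0.03 in WT (adjusted p = 0.59) and −0.62 in Pim1-/- cells (adjusted p = 8.4e-09), each with a standard error of 0.05. Together with Cenpa, Incenp, Cdc25b and Pttg1 it was among the genes with an untreated WT mean over 10 FPKM, and its ratio between genotypes was 2.59.

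Mki67 encodes Ki-67, the protein that coats mitotic chromosomes and is widely used as a marker of proliferation. The gene lies at chr7:135689784-135716361 on the minus strand. It was at 3.15, 2.87 and 2.69 FPKM in untreated WT, 28.0, 29.6 and 28.1 FPKM in LPS-treated WT, 40.9, 44.0 and 45.5 FPKM in untreated Pim1-/- and 26.4, 26.1 and 26.1 FPKM in LPS-treated Pim1-/- cells. In untreated cells the Pim1-/- values were far above the WT values, and after LPS the order of the genotypes was reversed by a narrow margin, which neither quantile normalization nor scaling to the estimated fragments kept, with 28.6 ± 0.924 FPKM for WT against 26.2 ± 0.173 FPKM for Pim1-/- cells (mean and SD, n = 3). By ratio of means Mki67 was 9.84 times higher after LPS in WT and 1.66 times lower in Pim1-/- cells, with log2 changes of 2.92 and −0.71. The decrease in Pim1-/- cells did not pass 2-fold as deposited, but it did with quantile normalization (−1.25) and with scaling to the estimated fragments (−1.36). The difference between the responses was −3.63, the largest of the 57 genes, and it is given as a description. In LPS-treated WT cells, high Mki67 stood beside low levels of Top2a and Ccnb1, whose means were 1.76 ± 0.276 FPKM and 0.775 ± 0.0663 FPKM (SD, n = 3).

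**Figure D3:**
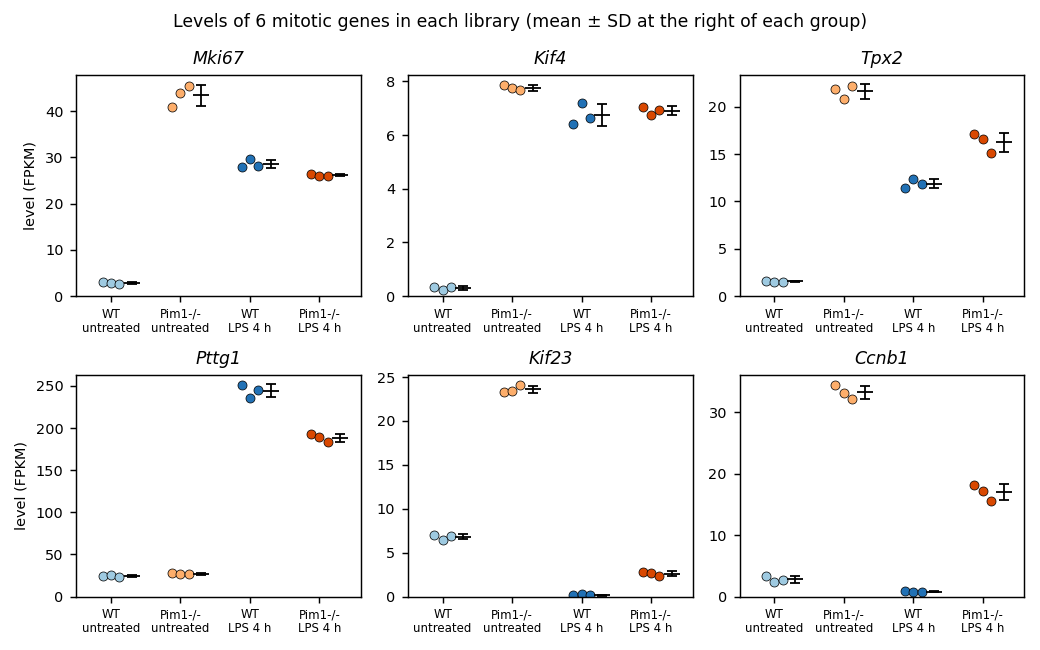
Level (vertical axis, FPKM, from 0 and with its own range for each gene) of Mki67, Kif4, Tpx2, Pttg1, Kif23 and Ccnb1 in each library of the 4 groups (horizontal axis). Points are libraries, and bars beside them give the mean and SD of 3. Mki67, Kif4 and Tpx2 are high in every group but untreated WT, Pttg1 is high after LPS, and Kif23 and Ccnb1 are lowest in LPS-treated WT.

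The 9 genes whose LPS values lay above all untreated values in WT were Mki67, Pttg1, Kif4, Tpx2, Ckap2l, Cenpe, Mad2l1, Plk4 and Nusap1. With scaling to the estimated fragments 8 of them kept that direction in the mean, and Nusap1 did not. The groups of the 2 genotypes share no library, but the list was chosen on levels in all 4 groups, which enter both ratios. In Pim1-/- cells 8 of these 9 were among the 9 genes with the highest ratio of LPS-treated to untreated mean, with Mki67 at rank 12. The median ratio in Pim1-/- cells was 0.927 for the 9 genes and 0.325 for the others. Across the 57 genes the log2 ratios of the 2 genotypes had Pearson's r of 0.81 and Spearman's rho of 0.82, and r was 0.80 without Pttg1. This is a description across genes, which are not independent replicates. No such correlation is given over all tested genes, of which 13.6% were called higher and 7.89% lower in both genotypes. Of the 9 genes 8 had a promoter window, and 3 of these (Mki67, Kif4 and Ckap2l) held a CHR motif (37.5%), against 34 of the 40 windows of the other genes (85%). This split was made after the values had been seen, and it was not tested. It counts Pttg1 as without a CHR motif, although its window holds no bases before the GENCODE start.

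**Figure D4:**
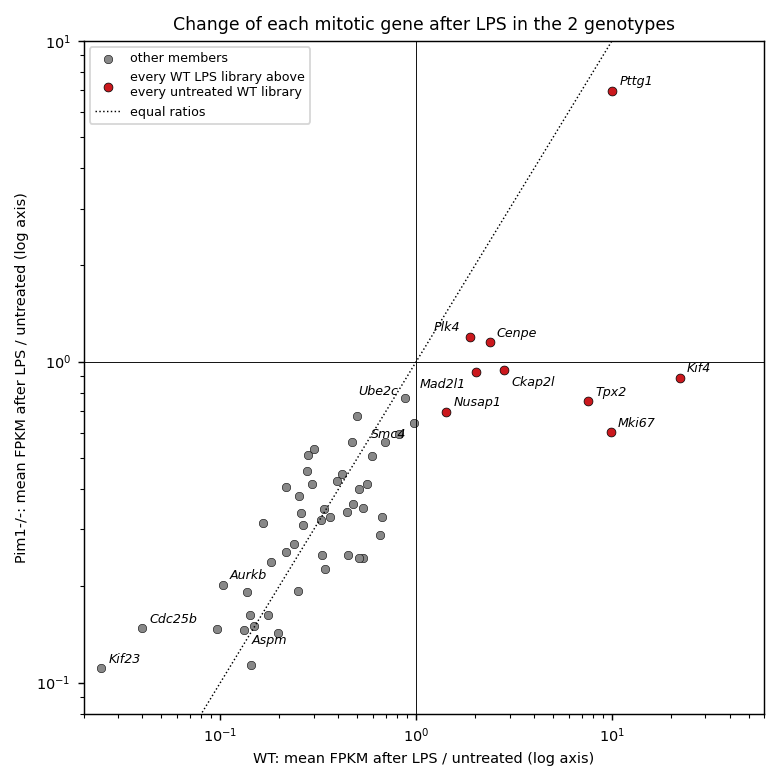
Ratio of the mean level after LPS to the untreated mean for each of the 57 genes, in WT (horizontal log axis) and Pim1-/- cells (vertical log axis), with the dotted line at equal ratios and solid lines at no change. The 9 genes above all untreated values in WT (red) lie to the right, and 8 of them are among the 9 highest on the vertical axis. Mki67 is the exception at rank 12.

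Most of the 57 genes had similar profiles over the 12 libraries. The correlation of a gene's log2(FPKM + 1) with the median of the 57 genes was 0.976 for the median gene and over 0.9 for 45 of them, as a description over libraries that share their group structure. The gap between genotypes, on which the list was chosen, enters these correlations. High values therefore follow in part from the choice, and no value over all tested genes is given beside them. The lowest values were those of Pttg1 (−0.38), Kif4 (0.43), Mki67 (0.50), Tpx2 (0.59) and Incenp (0.70).

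The genes outside the list whose levels were most like those of Mki67 over the 12 libraries were Gpsm2 (Pearson's r = 0.996), Psat1 (0.993), Eme1 (0.989), Kcnn4 (0.988), Phf19 (0.987), Id3 (0.986), Rpn1 (0.981), Tmpo (0.974), Calm3 (0.972) and Srsf1 (0.972). Gpsm2, which orients the spindle, had means of 1.90, 7.83, 6.68 and 6.06 FPKM in untreated WT, untreated Pim1-/-, LPS-treated WT and LPS-treated Pim1-/- cells. Psat1, an enzyme of serine synthesis, had means of 4.41, 28.4, 21.7 and 23.1 FPKM in the same order. Both were lowest in untreated WT cells and highest in untreated Pim1-/- cells, as was Mki67.

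A wider list of 95 other mitosis genes, written with earlier results of these data known, had 93 tested members. In WT cells 12 of these were called lower (14.7% of all tested genes) and 6 higher (20.1%) after LPS, and in Pim1-/- cells 43 were called lower (10.4%) and 1 higher (14.6%). The median log2 change was −0.26 in WT and −0.98 in Pim1-/- cells. The largest called decreases in WT were those of Ncapg2 (−2.38), Haus4 (−2.24) and Mis18a (−1.73), and in Pim1-/- cells those of Fbxo5 (−3.44), an inhibitor of the anaphase-promoting complex, Ccnf (−2.93) and Esco2 (−2.86). The largest called increases in WT were those of Ube2s (2.14), another ubiquitin-conjugating enzyme of that complex, Cenpj (1.94), a centriole protein, and Trip13 (1.85), which acts on Mad2. Cenpj was the gene called higher in Pim1-/- cells (1.36). Foxm1, a transcription factor of late cell cycle genes, had means of 0.941 ± 0.140 FPKM in untreated WT, 0.450 ± 0.110 FPKM in LPS-treated WT, 11.0 ± 0.588 FPKM in untreated Pim1-/- and 2.71 ± 0.614 FPKM in LPS-treated Pim1-/- cells (SD, n = 3). It fell in Pim1-/- cells, with a log2 change of −1.71 (adjusted p = 1.3e-10 with limma). In WT the change was −0.42, which could not be called from an untreated mean under 1 FPKM.

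A list of 42 S phase genes, for DNA replication, gave 8 called lower (14.7% of all tested genes) and 4 higher (20.1%) in WT and 21 called lower (10.4%) in Pim1-/- cells. The medians were −0.51 and −1.01. Its highest value in Pim1-/- cells, that of Mcm10 (0.67), was not called. As among the mitotic genes, some rose in WT against the direction of the rest, with Ccne1, cyclin E1, at 0.880 ± 0.0566 FPKM untreated and 9.38 ± 0.228 FPKM after LPS (SD, n = 3), a log2 change of 2.46 (adjusted p = 1.8e-16 with limma).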

How the data were processed

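RNA-seq values of 12 libraries of mouse BMDMs, 3 per group, were used as deposited. The authors prepared stranded mRNA libraries and deposited 1 value per gene and library. The submitters' processing notes name bcl2fastq 2.20.0.422, cutadapt 1.18, TopHat2 2.0.13, Cuffdiff 2.2.1 and build mm10, whereas the methods name a rat genome. Gene symbols in the files are those of mouse. The files carry no unit, and the deposited values were read as FPKM from the use of Cuffdiff and from their steps and sums. No source used here gives how the libraries were normalized.

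The 57 genes, the other gene lists and the motifs were chosen with earlier results of these data known. The 10581 genes that reached 1 FPKM in 3 or more libraries were fitted as log2(FPKM + 1) with limma 3.58.1 (R 4.3.3), with 4 group means and a spread that follows the mean. A change was called past 2-fold at p under 0.05 and FDR under 0.1 (Benjamini-Hochberg, over all tested genes), the study's thresholds used in both directions. Adjusted p-values are two-sided. Ratios are of mean FPKM. The fit was tested on simulated data with known answers, for the comparison of treatments in Pim1-/- cells. Changes were planted only in genes with a mean log2(FPKM + 1) over 2 in the Pim1-/- groups. The simulation therefore does not cover changes of lower genes, which include but are not limited to those under 1 FPKM.

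Depth was estimated from genes with 1 transcript. Of 4573 values up to 0.3 FPKM, 65.9% came within 0.05 of a whole number of fragments, too few to recover reads, so no count test was run. The estimate covers counting only.

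Deviations of same-numbered libraries from their group means, over 3646 genes with at least 10 FPKM in every library, correlated at 0.43, 0.54 and 0.68 between treatments in Pim1-/- cells and at −0.10, 0.14 and 0.19 in WT. Between genotypes they were 0.33, 0.37 and 0.46 without treatment and 0.02, 0.37 and 0.19 after LPS, where no test was made. In this gene set all correlations passed 0.1 for the Pim1-/- libraries and for the untreated libraries of the 2 genotypes. With the 5416 genes whose mean reached 10 FPKM they were 0.08, 0.14 and 0.34 in Pim1-/- cells and 0.01, 0.28 and 0.06 between the untreated genotypes, so that some fell under 0.1. Whether same-numbered libraries were paired cannot be told from these values, and the labels give only replicate numbers.

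Values in every library are given for 20 genes that stand for the roles and for the 3 largest decreases and increases after LPS in each genotype. Other genes are given by group, with up to 4 examples. Of the other mitosis genes, the 3 largest called changes per direction are named, and Foxm1, Mcm10 and Ccne1 were chosen after their values were seen. Alternatives were the pseudocount (0.1), no filter or one of 5 FPKM, median-ratio or quantile scaling, only the groups compared, the replicate number as a block, an FDR of 0.05 without a fold threshold, no trend and leaving out each library. Scaling to the estimated fragments was added after the data were seen. Promoters were read from RefSeq windows. Of the 57 genes 9 had none in that table. Python 3.11.15 was used with numpy 2.4.6 and pandas 2.3.3, and matplotlib 3.10.9 drew the figures.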

Additional observations from a re-analysis of the deposited data

Results flagged for a closer look

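For 4 of the 57 genes every LPS-treated WT library lay above every untreated WT library, while every LPS-treated Pim1-/- library lay below every untreated Pim1-/- library. Over all tested genes 2.21% had this pattern. The difference of the log2 responses, Pim1-/- minus WT, was −3.63 for Mki67, −2.72 for Kif4, −2.72 for Tpx2 and −0.78 for Nusap1. The difference was not tested, since it is built from the comparisons that chose the genes. With scaling to the estimated fragments Nusap1 no longer had this pattern, because its change in WT turned below 0.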

How the results depend on the processing

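The counts of genes called after LPS depended on the low levels in WT and on the scaling. Genes of the list called lower in WT (15) were 32 with a pseudocount of 0.1, 9 with quantile normalization, 23 with scaling to the estimated fragments, which was chosen after seeing the data, and 43 at an FDR of 0.05 without a fold threshold. At that FDR 9 genes were higher in WT (4 before) and 3 in Pim1-/- cells (1 before). The other mitosis genes called lower in WT (12) were 38 with the lower pseudocount, 29 with scaling to fragments and 59 by FDR alone, those higher in WT (6) were 3 and 19 with the last 2, those lower in Pim1-/- cells (43) were 27 with a filter of 5 FPKM, 72 with scaling to fragments and 77 by FDR alone, and those higher (1) were 0 and 8. The median log2 change of the list in WT (−0.52) was −1.18 with the pseudocount of 0.1, −0.60 with the filter of 5 FPKM, −0.28 with quantile normalization and −0.91 with scaling to fragments, and in Pim1-/- cells (−1.39) it was −1.52, −1.66 and −1.99 with the pseudocount, quantile normalization and fragments. The median genotype difference without treatment (2.84) was 3.75, 3.20 and 3.08 in that order, the one after LPS (1.98) was 3.29 with the pseudocount, 2.06 with the filter and 1.88 with quantile normalization, and the median difference in response (−0.84) was −0.39, −1.26 and −0.99 with pseudocount, quantile normalization and fragments. With each library left out in turn, 14 to 15 genes of the list were lower and 4 higher in WT, and 36 to 39 were lower and 1 higher in Pim1-/- cells. Of the other mitosis genes 11 to 14 were lower and 6 higher in WT, and 42 to 45 were lower and 1 higher in Pim1-/- cells. The medians ran from −0.57 to −0.50 in WT, −1.44 to −1.37 in Pim1-/- cells, 2.81 to 2.90 and 1.94 to 2.02 between genotypes without and with LPS, and −0.87 to −0.80 for the difference. The replicate block left 15 genes of the list lower and 4 higher in WT, with 38 lower and 1 higher in Pim1-/- cells, and changed no call of the 57 genes. None of these counts and medians reversed under the alternatives run, while the order of the genotypes for Mki67 after LPS did with quantile normalization and with scaling to fragments (0.06 and 0.14 against −0.12 as deposited). Quantile normalization turned Ccnb2 and Cenpk above 0 in WT, where neither was called. The causes of these shifts were not tested. With 11 genes under 10 estimated fragments in a library, depth limits the ratios of the lowest genes.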
